A study of Mus musculus with 6 samples.

Results

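The 6 mature miRNAs described here are mmu-miR-99a-5p, mmu-miR-99b-5p and mmu-miR-100-5p of the miR-99/100 family, and mmu-miR-125a-5p, mmu-miR-125a-3p and mmu-miR-125b-5p of the miR-125 genes, written without the species prefix from here on. They were chosen by name, because their hairpin genes lie beside let-7 genes in the mouse genome, and they are 6 of the 1189 entries measured in each library. Small RNA was sequenced from the prefrontal cortex of wild type male C57BL/6 mice aged 18 months, 3 in the PND (postoperative neurocognitive disorder) group and 3 in the CON group, with 1 library per mouse. Mice of the PND group had breathed 1.5% isoflurane for 30 min and then had an exploratory laparotomy of 30 min under the same anesthetic, with lidocaine cream and povidone iodine on the incision afterwards. Mice of the CON group had neither that anesthesia nor an operation, so that the anesthetic of the operation, the incision and the drugs on it cannot be told apart in this comparison. Mice of both groups went through behavioral tests, the last of them on postoperative day 6. Soon after it, mice of both groups were deeply anesthetized with isoflurane and perfused with saline, and the tissue was taken.

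A miRNA is cut from a hairpin in a longer transcript and guides Argonaute proteins to messenger RNAs, mainly through its seed, the bases next to its 5′ end. The miR-125 family corresponds to lin-4 of worms, one of the first miRNAs described, and the miR-99/100 family is among the oldest of animals and is known to repress Mtor. In mammals both families are encoded together with let-7, which restrains growth and stem cell programs, and miR-125b and let-7 are known for their high levels in neurons.

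The mature sequences show which of these miRNAs share a seed and how nearly identical the others are. They are RefSeq sequences on GRCm38.p6, matched by name for 6 of the 6 miRNAs, and capitals mark the seed, bases 2 to 8 counted from the 5′ end.
miR-99a-5p: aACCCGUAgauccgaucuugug
miR-100-5p: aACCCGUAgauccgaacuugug
miR-99b-5p: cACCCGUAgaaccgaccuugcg
miR-125a-5p: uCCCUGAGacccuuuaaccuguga
miR-125b-5p: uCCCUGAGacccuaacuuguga
miR-125a-3p: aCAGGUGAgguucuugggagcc
The let-7 miRNAs of the same clusters are given for comparison, together with miR-351-5p, the only other miRNA with a seed of these families among the 997 entries matched to a RefSeq sequence.
let-7e-5p: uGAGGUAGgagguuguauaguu
let-7c-5p: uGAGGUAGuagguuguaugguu
let-7a-5p: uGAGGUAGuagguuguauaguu
miR-351-5p: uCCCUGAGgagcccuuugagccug

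The seed ACCCGUA was shared by 3 listed miRNAs, namely miR-99a-5p, miR-99b-5p and miR-100-5p. miR-100-5p differs from miR-99a-5p at 1 base, U16A, with positions counted from 1 at the 5′ end and the base of miR-99a-5p written first. miR-99b-5p differs from miR-99a-5p at A1C, U11A, U16C and U21C. The seed CCCUGAG was shared by 3 listed miRNAs, namely miR-125a-5p, miR-125b-5p and miR-351-5p. miR-125a-5p has 24 bases and miR-125b-5p has 22, and they are identical over 13 bases from the 5′ end and 5 bases from the 3′ end. miR-125a-3p is cut from the other arm of the miR-125a hairpin, and its seed was found in 1 listed miRNA, itself. How reads fitting more than 1 miRNA were assigned is not given in the sources used here, so the split of reads between miR-99a-5p and miR-100-5p, which are 1 base apart, is uncertain. let-7a-5p is also 1 base from let-7c-5p (A19G) and 1 base from let-7e-5p (U9G), so the same limit holds for the let-7 levels and their ratios.

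The 3 clusters have the same order of genes, a miR-99/100 gene, a let-7 gene and a miR-125 gene, all on the plus strand. Positions are those of GENCODE M21 on GRCm38, as the data hold names and no coordinates. On chromosome 17, Mir99b (17830188 to 17830257) and Mirlet7e (17830352 to 17830444) lie in an intron of Spaca6, and Mir125a (17830812 to 17830879) overlaps an exon of that gene, within a span of 692 bp. On chromosome 16, Mir99a (77598936 to 77599000), Mirlet7c-1 (77599657 to 77599750) and Mir125b-2 (77646273 to 77646343) lie in introns of Mir99ahg, a noncoding host transcript. On chromosome 9, Mir100 (41531425 to 41531504), Mirlet7a-2 (41536716 to 41536811) and Mir125b-1 (41581926 to 41582002) lie in introns of the noncoding transcript 3110039I08Rik. In the chromosome 17 cluster let-7e is separated from miR-125a by 367 bp, whereas the corresponding gaps are 46522 bp on chromosome 16 and 45114 bp on chromosome 9. miR-125b-5p can come from 2 hairpins, Mir125b-1 and Mir125b-2, and let-7a-5p and let-7c-5p also have 2 hairpins each, so their levels sum over loci. miR-99a-5p, miR-99b-5p, miR-100-5p and both miR-125a arms come from a single hairpin.

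The deposited values are CPM, reads per 1000000 reads on miRNAs. The libraries held 14849461 to 19471226 such reads, and a floor of 3 reads corresponds to 0.154 to 0.202 CPM. The most abundant entry, miR-128-3p, a neuronal miRNA, took 17.6% to 29.2% of the reads and was highest in CON mouse 2, so that the CPM of every other miRNA in that library shares a smaller remainder. Among the 361 entries averaging 10 CPM or more, the median log2 fold change, PND against CON, was 0.14 in CPM, 0.02 after rescaling by TMM factors and -0.01 after rescaling by DESeq2 size factors. In bulk tissue, fewer cells of a type and less RNA per cell cannot be told apart. The summed level of 5 miRNAs known from epithelium or olfactory tissue (miR-200a-3p, miR-200b-3p, miR-200c-3p, miR-141-3p and miR-429-3p) was 861 CPM in CON mouse 1 and 27.3 to 36.7 CPM in the other libraries, with miR-141-3p at 0 in CON mouse 2. The neuronal markers miR-124-3p, miR-128-3p and miR-9-5p summed to 278690 to 313622 CPM in the PND group and 305719 to 370417 CPM in the CON group, and none of them was at 0. Most of this sum was miR-128-3p, at 176370 to 232454 CPM in PND and 215628 to 292349 CPM in CON. Over the further marker sets the groups overlapped, with 1575 to 1765 CPM in PND and 1384 to 1607 CPM in CON for oligodendrocytes, 47.0 to 99.5 and 31.9 to 54.5 for red blood cells, 11.5 to 21.4 and 7.41 to 15.8 for leukocytes and microglia, 13326 to 13992 and 11991 to 14372 for endothelium, and 771 to 802 and 586 to 929 for choroid plexus.

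The miRNAs spanned more than 3 orders of magnitude, and their order was the same in each library. miR-99a-5p led with a mean share of 5.11% of all miRNA reads and held rank 6 in every library. miR-125b-5p held ranks 13 to 17, miR-100-5p ranks 20 to 22, miR-125a-5p ranks 30 to 41, miR-99b-5p ranks 38 to 44 and miR-125a-3p ranks 325 to 361. The level of miR-99a-5p was 3.73 times that of miR-125b-5p (3.10 to 4.12 within a library), miR-125b-5p was 1.44 times miR-100-5p (1.30 to 1.71), and miR-100-5p was 2.24 times miR-125a-5p (1.82 to 2.84). miR-125a-5p and miR-99b-5p were the closest neighbors, at 1.20 times (1.07 to 1.43). Their values overlapped between libraries, although miR-125a-5p was the higher of the pair in 6 of 6 libraries. miR-99b-5p was 307 times miR-125a-3p. These are ratios of CPM, and how evenly different sequences entered the libraries was not measured.

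**Figure D1:**
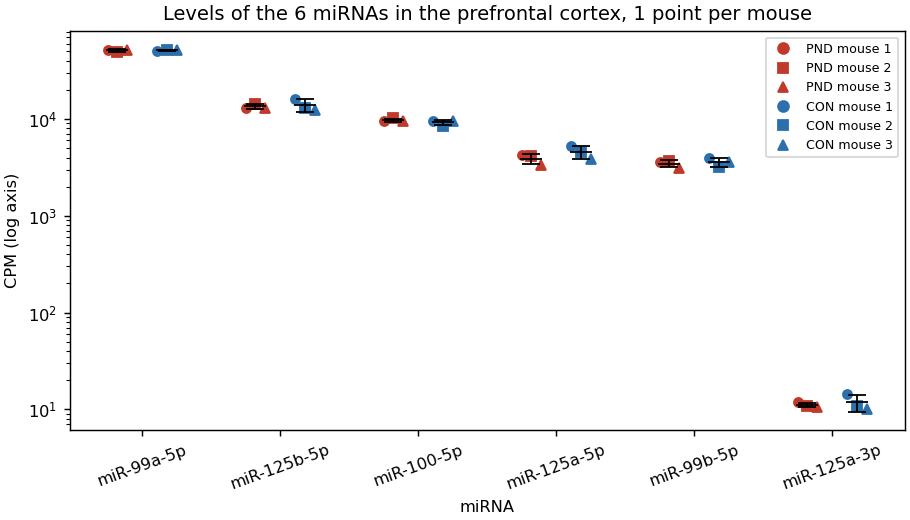
Level of each miRNA in CPM on a log axis, with 1 point per mouse (red PND, blue CON) and the mean and SD of each group (3 mice) as bars. The miRNAs fall in the order miR-99a-5p, miR-125b-5p, miR-100-5p, miR-125a-5p, miR-99b-5p and miR-125a-3p, and the PND and CON points overlap for each of them.

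Added up, the 3 miR-99/100 miRNAs took 6.33% to 6.49% of the miRNA reads of a library, of which miR-99a-5p made up 78.2% to 81.6%. The 3 miRNAs of the miR-125 genes took 1.63% to 2.15%, of which miR-125b-5p made up 74.1% to 79.5%. Each family was thus dominated by a single mature form, and all 6 together took 8.08% to 8.53% of the reads.

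For the comparison of the PND group with the CON group, a miRNA was counted as differentially expressed when its unadjusted p was under 0.05 and its log2 fold change exceeded 1 in size, with limma on log2(CPM + 1) of all 1189 entries. Of the 6 miRNAs, 0 passed these limits, against 0.0841% of all entries. At an unadjusted p under 0.05 alone, 0 of 6 passed, against a background of 5.13%, and with the replicate number as a block 0 of 6 passed, against 4.71%. At a Benjamini-Hochberg adjusted p under 0.05, 0 of 6 passed, against 0.421%. None of the 6 had groups that did not overlap, a pattern seen with PND higher in 7.91% of the entries and with PND lower in 2.02%. The median log2 fold change of the 6 was -0.05, against 0.05 over all entries tested and 0.14 over the 361 entries averaging 10 CPM or more. All 6 lay below the latter value, but so did let-7e-5p, let-7c-5p, let-7a-5p and miR-128-3p, so this was not particular to them. Against the median of all entries tested, miR-100-5p lay above, at 0.08. After TMM rescaling the median of the 6 was -0.16, against 0.02 over those 361 entries. Fold changes below are on the log2(CPM + 1) scale, PND minus CON, with the limma standard error, and adjusted p-values are those of limma with the Benjamini-Hochberg adjustment over all entries.

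miR-99a-5p, the leading miRNA of its family, measured 51755, 49481 and 51958 CPM in PND mice 1 to 3 and 50331, 52045 and 51270 CPM in CON mice 1 to 3. The group means were 51064 ± 1376 CPM in PND and 51215 ± 858 CPM in CON (SD, n = 3 each), a log2 fold change of -0.0045 ± 0.07 with a 95% interval of -0.17 to 0.16 and an adjusted p of 0.984 (limma). The groups overlapped, with PND mouse 2 lowest and CON mouse 2 highest, and the highest and lowest library differed by 1.05 times. The SD of its log2 level over the 6 libraries was 0.029, against a median of 0.16 for the 193 entries averaging 100 CPM or more, and 1 of these, miR-27a-3p, had a smaller SD. This evenness was a property of the CPM scale: the SD of miR-99a-5p was 0.092 when miR-128-3p was left out of the total, 0.13 with TMM factors and 0.15 with DESeq2 size factors, where 45, 78 and 97 of the 193 entries had a smaller SD. Its counting error was 0.108% of the level at 768823 to 1007731 reads per library, against a coefficient of variation of 2.01% between the mice.

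miR-100-5p, which shares the seed with miR-99a-5p, measured 9570.5, 10157 and 9485 CPM in PND mice 1 to 3 and 9518, 8546 and 9593 CPM in CON mice 1 to 3. CON mouse 2 was lowest and PND mouse 2 highest, and the other libraries lay within a narrow range in which the groups overlapped. The log2 fold change was 0.08 ± 0.09 (95% interval -0.12 to 0.28, limma adjusted p = 0.768), and its sign flipped to -0.04 with TMM factors, -0.07 with DESeq2 size factors and -0.0052 when miR-128-3p was left out of the total. The SD of the log2 level of miR-100-5p was 0.081 in CPM, 0.057 with TMM factors, 0.081 with DESeq2 size factors and 0.044 without miR-128-3p in the total. In that order, 29, 4, 13 and 2 of the 193 abundant entries had a smaller SD. miR-99b-5p, the third miRNA of this seed, measured 3567, 3655 and 3113 CPM in PND and 3978, 3168 and 3624 CPM in CON, with a log2 fold change of -0.06 ± 0.12 (95% interval -0.33 to 0.21, limma adjusted p = 0.918). The summed level of the 3 miRNAs was 63292 to 64893 CPM in PND and 63759 to 64488 CPM in CON, a log2 difference of 0.0049, which was -0.12 with TMM factors.

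miR-125a-5p had the largest difference of the 6, and in the direction of lower levels in PND. It measured 4203, 4173 and 3343 CPM in PND mice 1 to 3 and 5215, 4531 and 3881 CPM in CON mice 1 to 3, with means of 3907 ± 488 and 4543 ± 667 CPM (SD, n = 3 each). PND mouse 3 was lowest and CON mouse 1 highest, and the groups overlapped because CON mouse 3 lay below PND mice 1 and 2. The log2 fold change was -0.21 ± 0.14 (95% interval -0.54 to 0.11, limma adjusted p = 0.768), and the exact two-sided permutation p was 0.3, where 0.1 is the smallest that 3 against 3 mice can give. The sign held under each scaling and when any mouse was left out (-0.32 to -0.11), whereas the unadjusted call did not: p was 0.168 with limma in CPM, 0.0564 with TMM factors, 0.0482 with DESeq2 size factors, 0.0398 with the quasi-likelihood test of edgeR and 0.0292 with DESeq2, the last 2 on the recovered reads. Its adjusted p ranged from 0.645 to 0.983 over all fits tried. Under DESeq2 size factors, edgeR and DESeq2 the background of entries at an unadjusted p under 0.05 was 4.46%, 4.21% and 2.36%.

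miR-125b-5p, the most abundant miRNA of the lin-4 seed, measured 13064, 14406 and 13007 CPM in PND mice 1 to 3 and 16254, 12975 and 12448 CPM in CON mice 1 to 3. CON mouse 1 stood above the other 5 libraries, and the CON group held both the highest and the lowest values. The log2 fold change was -0.03 ± 0.12 (95% interval -0.31 to 0.24, limma adjusted p = 0.964). miR-125a-3p, the minor arm of the miR-125a hairpin, measured 11.8, 10.9 and 10.7 CPM in PND and 14.4, 10.9 and 10.004 CPM in CON, with 161 to 230 reads per library. Its log2 fold change was -0.06 ± 0.17 (95% interval -0.46 to 0.34, limma adjusted p = 0.955). Counting error alone was 7.21% of this level, against a coefficient of variation of 13.6% over the libraries.

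CON mouse 1, the library with the high epithelial or olfactory markers, was in CPM also the highest library for miR-99b-5p, miR-125a-5p, miR-125a-3p and miR-125b-5p, whereas with TMM factors or DESeq2 size factors CON mouse 2 was highest for miR-125a-5p. Without that mouse the log2 fold changes were 0.02 for miR-99b-5p, -0.11 for miR-125a-5p, 0.08 for miR-125a-3p and 0.08 for miR-125b-5p, so that 3 of these 4 changed sign, with limma adjusted p-values of 0.687 to 0.972. The part of those markers in the results was not tested. miR-99a-5p and miR-100-5p were not highest in CON mouse 1, and without it their log2 fold changes were -0.02 and 0.10.

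**Figure D2:**
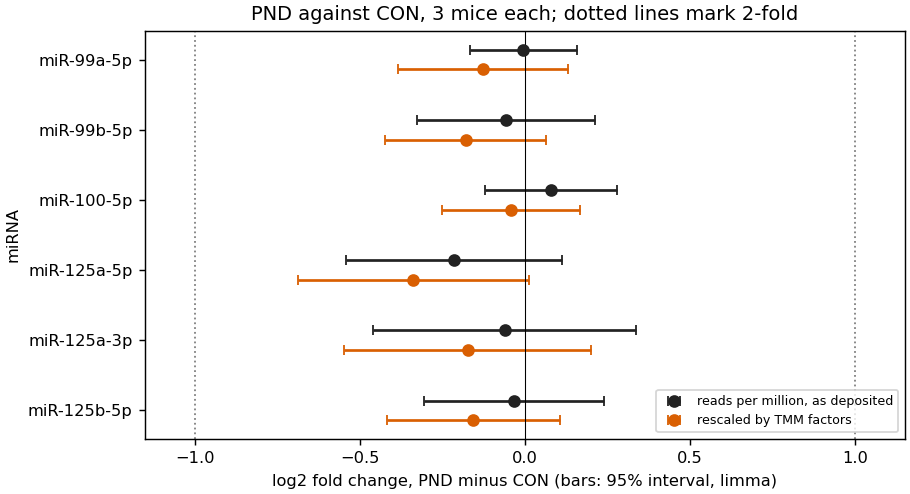
Log2 fold change of each miRNA, PND minus CON (3 mice each), with 95% limma intervals, in CPM as deposited (black) and after TMM rescaling (orange). Each interval crosses 0 and lies between the dotted lines at a change of 2-fold in either direction, and TMM rescaling moves each estimate toward lower values in PND, miR-100-5p from 0.08 to -0.04.

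In CPM the 95% intervals allow a ratio of PND to CON of 0.891 to 1.11 for miR-99a-5p, 0.921 to 1.21 for miR-100-5p, 0.797 to 1.16 for miR-99b-5p, 0.686 to 1.08 for miR-125a-5p, 0.809 to 1.18 for miR-125b-5p and 0.728 to 1.26 for miR-125a-3p. The intervals are narrowest for miR-99a-5p and widest for the sparsely read miR-125a-3p.

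The let-7 miRNAs and other arms of the 3 clusters, with miR-351-5p and let-7a-1-3p, from a further let-7a hairpin on chromosome 13, were tested in the same fit, and 0 of 13 passed an unadjusted p under 0.05 in limma, against the background of 5.13%. let-7e-5p measured 3253, 3157 and 3022 CPM in PND mice 1 to 3 and 3256, 3326 and 2890 CPM in CON mice 1 to 3, a log2 fold change of -0.0040. let-7c-5p lay between 19730 and 23648 CPM with a log2 fold change of 0.07, which was -0.05 with TMM factors, and let-7a-5p lay between 16423 and 19525 CPM with -0.02. miR-351-5p, an X-linked miRNA with the miR-125 seed, was far sparser at 18.7 to 24.4 CPM, with a log2 fold change of -0.17 (limma adjusted p = 0.768).

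The clusters allow the question of whether miRNAs cut from neighboring hairpins move together. A ratio of cluster mates within a library does not depend on how that library was scaled, so 8 such ratios, with that of miR-99a-5p to miR-100-5p from different clusters as the ninth, were compared between the groups by exact two-sided permutation tests, for which 0.1 is the smallest possible p. In the compact chromosome 17 cluster, the ratio of miR-125a-5p to miR-99b-5p was 1.18, 1.14 and 1.07 in PND mice 1 to 3 and 1.31, 1.43 and 1.07 in CON mice 1 to 3 (log2 difference -0.16, exact permutation p = 0.4). The ratio of let-7e-5p to miR-99b-5p was 0.912, 0.864 and 0.971 in PND and 0.819, 1.05 and 0.798 in CON (exact permutation p = 0.7). These 3 neighbors thus had similar CPM.

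The ratio of let-7e-5p to miR-125a-5p was 0.774, 0.757 and 0.904 in PND mice 1 to 3 and 0.624, 0.734 and 0.745 in CON mice 1 to 3. Among the 9 ratios it alone had groups that did not overlap, with each PND mouse above each CON mouse and a log2 difference of 0.21. Its exact permutation p was 0.1, which the Benjamini-Hochberg adjustment over the 9 ratios raised to 0.75. With each mouse left out in turn the log2 difference was 0.13 to 0.26. The split of reads between let-7e-5p and the more abundant let-7a-5p, 1 base apart, is uncertain here too.

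In the chromosome 16 cluster, the ratio of miR-125b-5p to miR-99a-5p was 0.252, 0.291 and 0.25 in PND and 0.323, 0.249 and 0.243 in CON (exact permutation p = 1.0), and that of let-7c-5p to miR-99a-5p was 0.457, 0.462 and 0.409 in PND and 0.440, 0.436 and 0.385 in CON (exact permutation p = 0.5). In the chromosome 9 cluster, miR-125b-5p to miR-100-5p was 1.36, 1.42 and 1.37 in PND and 1.71, 1.52 and 1.30 in CON (exact permutation p = 0.4), and let-7a-5p to miR-100-5p was 1.99, 1.79 and 1.73 in PND and 1.83, 2.28 and 1.81 in CON (exact permutation p = 0.5). The PND mice were closer together than the CON mice in the first of these, with SDs of 0.029 and 0.205 around means of 1.38 and 1.51, but the groups overlapped. miR-125b-5p, let-7c-5p and let-7a-5p can each come from a further hairpin, so these ratios mix loci. miR-99a-5p to miR-100-5p, the near-identical forms from different chromosomes, was 4.87 to 5.48 in PND and 5.29 to 6.09 in CON (exact permutation p = 0.6).

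**Figure D3:**
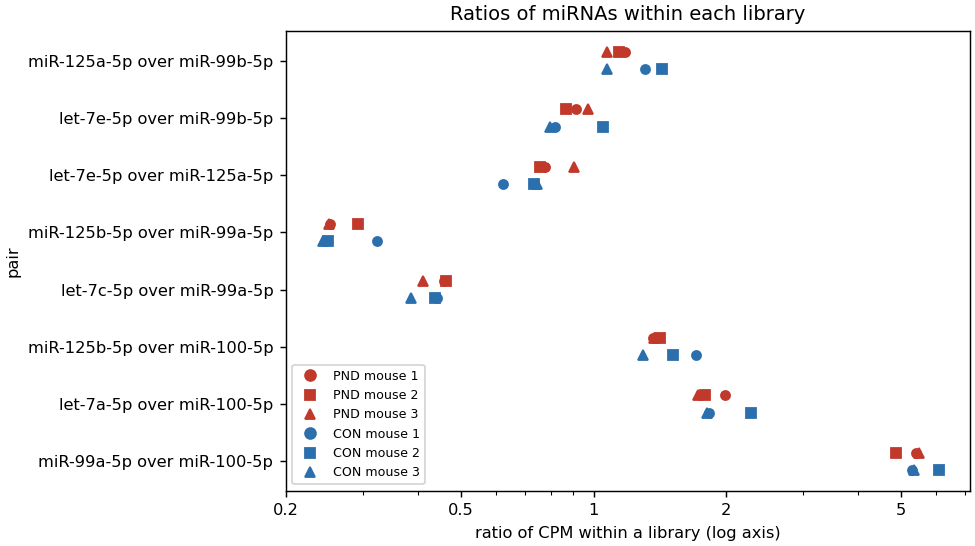
Ratio of CPM of paired miRNAs within each library on a log axis, with 1 point per mouse (red PND, blue CON). The groups overlap for each pair shown except let-7e-5p over miR-125a-5p, where the PND mice lie at 0.757 to 0.904 and the CON mice at 0.624 to 0.745.

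The spread of the ratio had a similar median in mates of a cluster and in other pairs, and a wider range in the others. Over the 6 libraries the SD of the log2 ratio was 0.101 to 0.18 for 11 pairs of mates, with a median of 0.147, and 0.094 to 0.245 for 10 other pairs among the 6 miRNAs, with a median of 0.155. The tightest pair of mates was let-7c-5p with miR-99a-5p, whose hairpins lie 656 bp apart, at 0.101. The tightest pair of all was miR-125a-3p with miR-125b-5p at 0.094, which lie on different chromosomes. Counting error alone was 7.21% of the level of miR-125a-3p and enters the spread of each of its ratios, so the place of its pairs in this order is uncertain. The 4 pairs of miR-99a-5p or miR-100-5p with an arm of miR-125a, which are not mates, varied more than any pair of mates, at 0.195 to 0.245. The SD of the log2 level itself was largest for the miR-125a arms, at 0.215 for miR-125a-5p and 0.170 for miR-125a-3p. Pairs with let-7 are found among the mates only, so the 2 kinds of pair differ in more than the cluster. Pairs share miRNAs and are not independent, so no test was made of the difference between these medians.

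Correlations of log2(CPM + 1) over the 6 mice gave no pair past an adjusted p of 0.05 among 21 pairs (720 permutations each, Benjamini-Hochberg over the pairs). Pearson's r was -0.70 to 0.77 for the 11 pairs of mates, of which 7 were above 0, and -0.72 to 0.86 for the 10 others, of which 5 were above 0. The smallest adjusted permutation p was 0.368 for r and 0.233 for Spearman's rho. Among the mates, r was highest for the arms of the same hairpin, miR-125a-5p and miR-125a-3p, at 0.77 (permutation p = 0.0931, adjusted 0.368). Without the 2 libraries farthest from the median of miR-125a-5p it was 0.53. Libraries were left out by the miRNA of a pair that is named first, so the other order could leave out others, and few libraries remain. Among the mates, r was lowest for miR-99a-5p with miR-125b-5p, at -0.70, which turned to 0.89 without 2 libraries, PND mouse 2 and CON mouse 1. The highest r of all, 0.86 for miR-125a-3p with miR-125b-5p (permutation p = 0.0389, adjusted 0.368), fell to -0.17 without CON mice 1 and 3. After TMM rescaling each of the 21 pairs had r above 0, with 0.30 to 0.88 for mates and 0.20 to 0.91 for the others, and the smallest adjusted permutation p was 0.0972, so that the sign of a correlation between these miRNAs depended on the scaling in both kinds of pair.

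**Figure D4:**
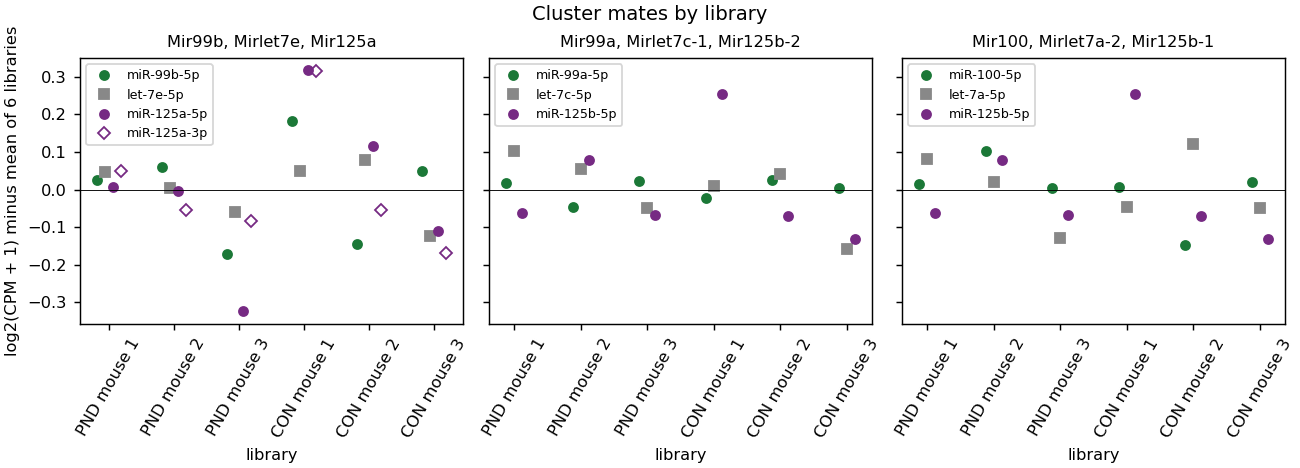
Deviation of log2(CPM + 1) from the mean of the 6 libraries for the miRNAs of each cluster, 1 panel per cluster and 1 column of points per mouse. In CON mouse 1 both miR-125a arms and miR-125b-5p stand above their let-7 mates and miR-99a-5p and miR-100-5p stay near 0, whereas miR-99a-5p stays near 0 in all libraries.

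The arms of the hairpins held very unequal numbers of reads, and to a different degree for each gene. miR-99a-3p had 2 to 9 reads per library, 28 in all, against 5165696 reads of miR-99a-5p, a ratio of summed reads of 184489 with a counting interval of 127650 to 277639. miR-100-3p had 16 to 26 reads per library, at a ratio of 6433 to 11647. The 5p arm of miR-99b, which differs from miR-99a-5p and from miR-100-5p at 4 of 22 bases, exceeded the 3p arm by only 27.9 to 32.6 times.

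For miR-125a the 5p arm exceeded the 3p arm by 313 to 415 times, and for miR-125b the 5p form exceeded the sum of its 3p forms by 48.9 to 62.2 times. The ratio of miR-125a-3p to its 5p arm overlapped between the groups (log2 difference 0.15, exact permutation p = 0.2). The 3p arms of miR-125b tell its hairpins apart. miR-125b-1-3p, from chromosome 9, measured 136, 112 and 108 CPM in PND and 125, 126 and 125 CPM in CON. miR-125b-2-3p, from chromosome 16, measured 131, 130 and 150 CPM in PND and 136, 101 and 122 CPM in CON. Both hairpins thus left 3p reads at about the same level, with a ratio of 1.04, 0.861 and 0.725 in PND mice 1 to 3 and 0.917, 1.24 and 1.02 in CON mice 1 to 3, and how the 5p reads divide between them was not measured.

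**Figure D5:**
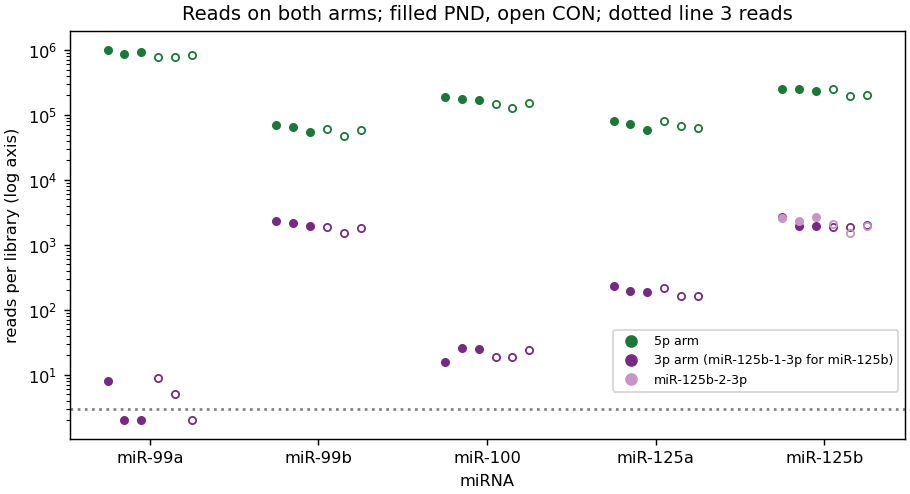
Reads per library on the 5p arm (green) and 3p arm (purple) of each miRNA on a log axis, filled for PND and open for CON mice, with the floor of 3 reads as a dotted line. The gap between the arms is widest for miR-99a, whose 3p arm has 2 to 9 reads, and narrowest for miR-99b, with a ratio of 27.9 to 32.6.

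Among the other entries averaging 100 CPM or more (192 for the abundant miRNAs, 193 for miR-125a-3p), those whose CPM pattern over the 6 libraries was most like that of each miRNA are given as a description. The entry nearest to miR-99a-5p was miR-335-3p (r = 0.76), to miR-99b-5p miR-411-3p (r = 0.96) and to miR-100-5p miR-140-5p (r = 0.92). The nearest to miR-125a-5p was miR-26a-5p (r = 0.97), to miR-125a-3p miR-346-5p (r = 0.90) and to miR-125b-5p miR-1249-3p (r = 0.96). The 6 values behind each r share the scaling of the libraries. None of these nearest entries was a cluster mate. Each r was picked as the highest of 192 or 193 over only 6 libraries, so this list cannot tell whether mates move together.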

How the data were processed

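The sample labels give each library its group and replicate number. The authors filtered reads with fastx, aligned them with Bowtie and named miRNAs by miRBase. The study describes TMM and then scaling to reads per 1000000 (called TPM there). The deposited values per miRNA sum to 999998.5 to 999999.5 in each library, so they are plain CPM that carry no TMM factor. The submitters' processing notes list Bowtie 0.12.2 and builds mm8 and mm9 without a role. The labels name a total RNA library kit and the study's methods a small RNA kit, and the sample names carry a different age in months from the recorded age. In every library 100% of values were whole multiples of 1 read (tolerance 0.01 read). No library was a copy of another of its group (chi-square per degree of freedom 81.7 to 429).

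limma 3.58.1 (eBayes with trend, R 4.3.3) was run on log2(CPM + 1) of all 1189 entries without covariates. The limits on p and fold change are those the study used, but the measures differ. The study describes p-values from edgeR and fold changes from TPM, and also names limma. The share of entries past the limits here is therefore not that of the study. Single values and ratios were compared by exact permutation tests in Python 3.11.15 with numpy 2.4.6, and scipy 1.17.1 gave ranks and counting intervals. edgeR 4.0.16 and DESeq2 1.42.0 on recovered reads were alternatives, as were a minimum mean of 10 CPM, a pseudocount of 0.1, no trend, TMM factors, DESeq2 size factors, a total without miR-128-3p, the replicate block and leaving out each mouse. The spread of each miRNA under other scalings was added after the data were seen. The fits were run on simulated data with planted changes far larger than those reported here, which does not show how well small changes are found. Intervals from reads cover counting error only.

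The miRNAs, lists and tests were chosen with earlier results of these data known. Named are the 6 miRNAs, the other arms of their clusters, let-7a-1-3p, listed miRNAs with the same seed, miR-128-3p, marker miRNAs and, for each of the 6, the miRNAs of most similar pattern, of which the nearest is printed. miR-27a-3p was named after its values were seen. The mice are separate animals according to the study.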

Additional observations from a re-analysis of the deposited data

How the results depend on the processing

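Over 15 alternative fits no count of the 6 miRNAs past the study's limits or past an adjusted p of 0.05 moved from 0. At an unadjusted p under 0.05, 1 of the 6, miR-125a-5p, passed with DESeq2 size factors, with edgeR and with DESeq2 (the cause was not tested). Counting error was 0.108% to 0.411% of the level for the 5 abundant miRNAs, below their spread of 2.01% to 14.9% between mice, and 7.21% for miR-125a-3p.

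The count of all entries at an unadjusted p under 0.05 was 61, and 5 with a minimum mean of 10 CPM, where fewer entries were tested, and 28 with DESeq2. At an adjusted p it was 5, and 0 with that minimum, without trend and with the replicate block. Past both limits it was 1, and 22 with a pseudocount of 0.1, 32 with edgeR, 11 with DESeq2, 2 with the replicate block, and 0 with the minimum mean and without trend. Leaving out each mouse, these 3 counts were 31 to 91, 0 to 3 and 0 to 1.

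Same-numbered mice of the groups correlated at -0.13, 0.12 and 0.51 in their deviations from the group means, and differently numbered mice at -0.55 to 0.50. The numbers were not taken as pairs. With the replicate block 56 entries (4.71%) passed an unadjusted p under 0.05, none of them among the 6 miRNAs.

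Rescaling moved the log2 fold changes to lower values in PND. With TMM factors and DESeq2 size factors, miR-99a-5p moved from -0.0045 to -0.13 and -0.16, miR-99b-5p from -0.06 to -0.18 and -0.21, miR-125b-5p from -0.03 to -0.16 and -0.19, and miR-125a-3p from -0.06 to -0.17 and -0.20. Others changed sign. With TMM factors, DESeq2 size factors, the total without miR-128-3p, edgeR and DESeq2 in turn, miR-100-5p gave -0.042, -0.072, -0.0052, -0.042 and -0.072, let-7c-5p -0.051, -0.081, -0.014, -0.058 and -0.089, miR-99b-3p -0.065, -0.095, -0.029, -0.064 and -0.093, let-7e-3p -0.039, -0.068, -0.0024, -0.041 and -0.070, and let-7a-1-3p -0.059, -0.088, -0.022, -0.072 and -0.10. let-7c-1-3p gave -0.021 with DESeq2 size factors and -0.025 with DESeq2. The summed miR-99/100 level moved from 0.0049 to -0.12, -0.15 and -0.080 with the first 3 of these, in each of which CON mouse 2 has the smallest factor (0.86 with TMM).

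Leaving out each mouse, the log2 fold changes near 0 changed sign in part: miR-99a-5p gave -0.017 to 0.018, miR-99b-5p -0.14 to 0.020, miR-125a-3p -0.16 to 0.082, miR-125b-5p -0.11 to 0.085, let-7e-5p -0.066 to 0.035, let-7a-5p -0.063 to 0.042, miR-99b-3p -0.0045 to 0.11, miR-100-3p -0.16 to 0.065 and let-7a-1-3p -0.030 to 0.16. The log2 ratio of let-7e-5p to miR-99b-5p gave -0.020 to 0.18, that of miR-125b-5p to miR-99a-5p -0.10 to 0.10 and that of let-7a-5p to miR-100-5p -0.16 to 0.012. None of these passed its test in the full set of mice either.

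Many correlations changed sign. The 2 farthest libraries were picked by the miRNA of a pair that is named first, and the second played no part in the choice. In the order TMM factors, total without miR-128-3p, and without the 2 farthest libraries, r of miR-99a-5p turned to 0.57, 0.56 and 0.11 with miR-125a-5p, to 0.38, 0.36 and 0.53 with miR-125a-3p, and to 0.32, 0.19 and 0.89 with miR-125b-5p, and r of let-7a-5p with miR-100-5p turned to 0.86, 0.42 and 0.22. For miR-100-5p with miR-125a-5p, r turned to 0.61, 0.55 and 0.14, and to 0.13 in deviations from group means. With the first 2 settings only, miR-99a-5p turned to 0.35 and 0.18 with miR-99b-5p and to 0.77 and 0.68 with let-7c-5p, and let-7a-5p turned to 0.47 and 0.35 with miR-125b-5p. With TMM factors only, miR-99a-5p turned to 0.67 with miR-100-5p. Without the 2 farthest libraries only, miR-99b-5p turned to -0.27 with miR-100-5p, and miR-100-5p to -0.32 with miR-125a-3p and -0.42 with miR-125b-5p. In the same setting miR-125a-3p turned to -0.17 with miR-125b-5p, and let-7e-5p to -0.54 with miR-99b-5p. The cause was not tested.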
